A study of Mus musculus with 16 samples.

Results

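The spindle checkpoint, kinetochore and APC/C genes are described here in mouse two-cell embryos with and without maternal KDM1A. They are 42 genes taken by name, for what their proteins do in mitosis, out of the 24063 genes listed in the deposited count tables. RNA was sequenced from 16 single embryos, 8 of them f/wt controls and 8 of them Δm/wt. All mothers carried 2 floxed copies of Kdm1a, the gene of a histone demethylase also called Lsd1, on a mixed C57BL/6J and 129 background, were 4 to 8 weeks old, were superovulated, and were mated with wild-type B6D2F1 males. The mothers of f/wt embryos had no cre. The mothers of Δm/wt embryos carried a Zp3-cre transgene, whose promoter is active in the growing oocyte, so that exon 1 of Kdm1a was removed before fertilization while the paternal allele stayed wild-type in every embryo. Embryos were taken 40 to 42 hours after the hCG injection that triggers ovulation, and the comparison asked how the RNA of the two-cell embryo differs when the egg supplied no KDM1A.

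At mitosis the kinetochore, a protein assembly built on the centromere, binds spindle microtubules. Kinetochores without microtubules activate the spindle checkpoint, whose product blocks the APC/C, the anaphase-promoting complex or cyclosome, a ubiquitin ligase that marks securin and cyclin B for destruction. Once the block is lifted, separase is freed from securin and the sister chromatids part. The egg stores many of these messages for the meiotic divisions, and in the mouse the two-cell stage is when stored RNA is cleared while the embryo switches on its own genome.

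Total gene counts ranged from 3212510 to 9337451 in f/wt and from 4049168 to 14334244 in Δm/wt libraries, with 41 or 42 of the 42 genes detected in each, and these genes held 0.574% to 1.11% of the counts in f/wt and 0.650% to 1.94% in Δm/wt. The counts of f/wt 2 and f/wt 3 differed only slightly beyond sampling noise: their chi-square averaged 1.89 over genes, while it was 45.6 to 367 in the 55 remaining pairs of libraries of a group. They were therefore added up as 1 sample, so the comparison had 7 controls and 8 Δm/wt samples. Kdm1a itself had 8 to 188 counts in f/wt and 0 to 26 in Δm/wt libraries (log2 fold change -2.99 ± 1.01 SE, adjusted p = 0.0211), although reads toward its 3′ end lie outside the deleted exon. Sums over marker lists are reads per 1000000 of the total counts of each single library, without TMM, a scaling between libraries. Levels of single genes are after TMM scaling, with f/wt 2 and 3 added up, so they are not parts of these sums. Of the marker lists, all 8 two-cell and oocyte genes were detected, with summed levels of 1016 to 2355 CPM in f/wt and 3238 to 10889 in Δm/wt. Of the 7 that were tested, 5 rose, while Nlrp5 and Zfp352 did not pass. Tdpoz4, too low to be tested, went the other way, with 1 to 76 counts in f/wt and 0 to 3 in Δm/wt libraries. Cumulus and granulosa markers summed to 22.0 to 235 and 32.4 to 142 CPM, with Foxl2, Inhba, Ptx3 and Fshr at 0. Among these genes Cyp19a1, the aromatase gene, had 25.9 to 143 CPM in Δm/wt against 0 to 0.315 in controls (adjusted p = 3.95e-07). Amhr2, a receptor gene, had 0 to 2.39 CPM in Δm/wt against 2.81 to 182 in controls (adjusted p = 5.99e-05). The part of these markers in the results was not tested. Sperm markers summed to at most 0.939 and 7.14 CPM, with Prm1, Tnp1 and Tnp2 at 0. All 8 myeloid markers were detected, with sums of 1.31 to 29.8 CPM in f/wt and 8.30 to 1984 in Δm/wt, and their part in the results was not tested. The sum was highest in Δm/wt 5, as were Lyz2 (1704 CPM), Ptprc and Csf1r. Tyrobp (97.2 CPM), Fcer1g (106), C1qb (118) and Cd68 (155) were highest in Δm/wt 4. Without Δm/wt 5, 11 of the genes described here rose and 9 fell, and without Δm/wt 4, 10 rose and 9 fell.

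Of the 42 genes, 41 passed the filter on low counts and were tested, and the remaining one, Cdc23, had 61 counts in all libraries together. In Δm/wt 10 of them rose (24.4%), beside 21.9% of all 11344 genes tested (edgeR's quasi-likelihood test, adjusted p under 0.05). A further 9 fell (22.0%), beside 22.8% of all genes tested, and 22 did not pass. Both shares were close to those of all genes, so the counts alone say nothing particular about these genes. Their median log2 fold change was 0.07, against 0.04 over all genes. The groups did not overlap for 12 genes, with every Δm/wt sample above every f/wt sample in 5 of 41 (12.2%, beside 7.18% of all genes tested) and below in 7 of 41 (17.1%, beside 9.04% of all genes tested). Rises and falls occurred within the same protein complexes, as the plot of fold changes by role shows. Each library held a whole two-cell embryo, and levels are relative to the other reads of the library, so the amount of RNA per embryo is not known. The p-values set the difference between the groups against the spread between these samples. The labels do not name the mother of each embryo, so the spread between mothers could not be separated.

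**Figure D1:**
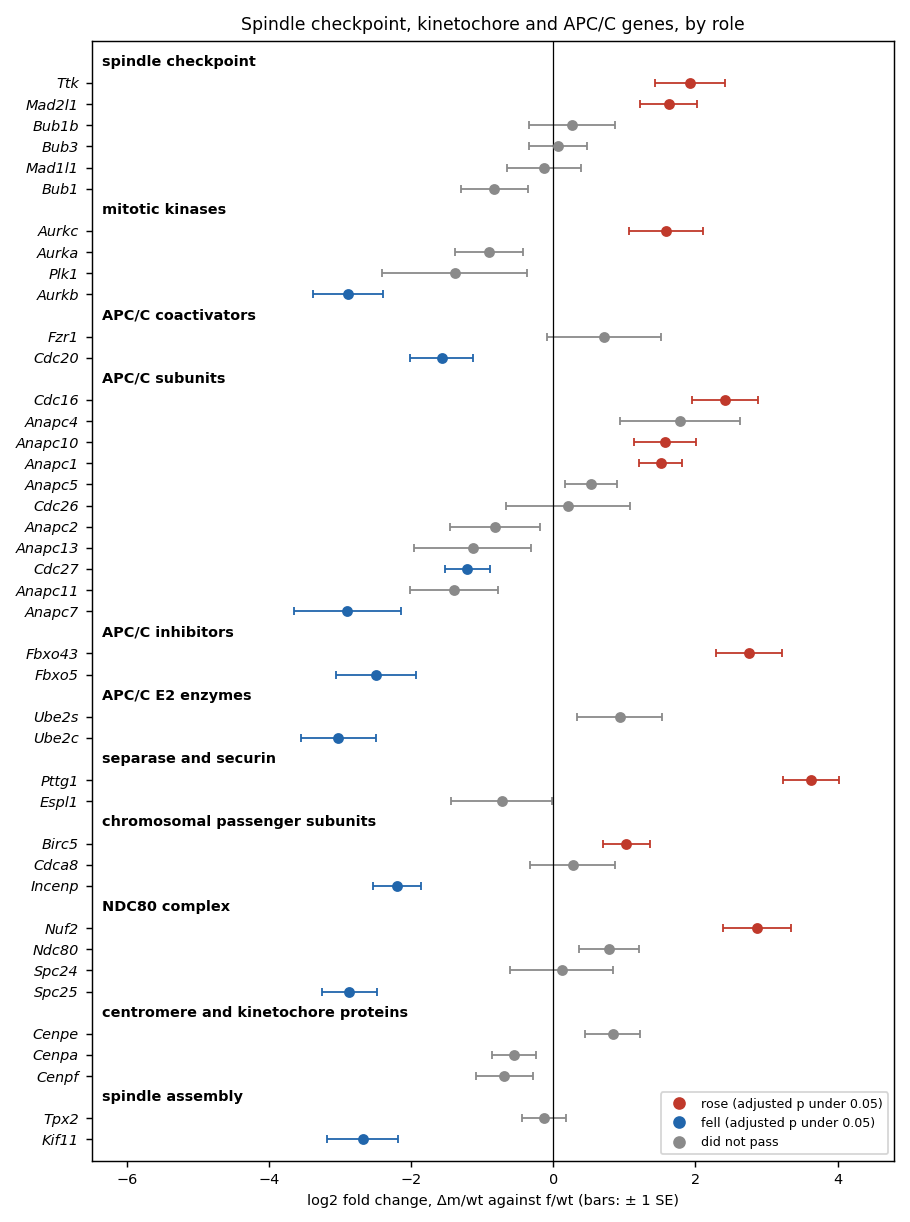
Log2 fold change of the 41 tested genes in Δm/wt (8 samples) against f/wt (7 samples), ± 1 SE, grouped by role, with genes that rose in red, genes that fell in blue and genes that did not pass in grey. The spread runs from -3.03 for Ube2c to 3.63 for Pttg1, and rises and falls stand side by side among the APC/C subunits, the APC/C inhibitors, the chromosomal passenger subunits and the NDC80 complex.

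The split between rises and falls moved with the scaling of the libraries. Scaling to library totals gave 8 rises and 14 falls, and scaling to the reference genes Hprt, Gapdh and Ppia gave 14 rises and 7 falls. The median of all genes stood at 0.04 with the scaling used here (TMM), at -0.32 with library totals and at 0.75 with the reference genes, and fold changes are read relative to these values. Embryos 4 to 8, used alone in 1 of the alternatives, are those with similar read numbers in the study's table, which is not a batch named in the labels. Across all 25 other ways of fitting the data, leaving out single libraries included, 8 genes rose throughout (Anapc1, Anapc10, Cdc16, Fbxo43, Mad2l1, Nuf2, Pttg1 and Ttk) and 7 fell throughout (Anapc7, Aurkb, Fbxo5, Incenp, Kif11, Spc25 and Ube2c).

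Many genes used in G2 and mitosis share a short promoter element close to the start of transcription, the cell cycle genes homology region or CHR, which is bound by the DREAM and MuvB protein complexes. RefSeq promoters (GRCm38.p6, 250 bases before to 50 after the start) were matched by symbol for 36 of the 42 genes, and not for Aurkb, Cdc23, Fbxo43, Incenp, Spc24 and Tpx2. They were searched on both strands for TTTGAA or TTCGAA. A match was present in 18 of 36 promoters (50%), against 1439 of 8612 promoters of all genes tested (16.7%). It was present in 6 of the 7 genes that fell, in 11 of the 20 that did not pass and in 1 of the 9 that rose, while among all genes tested it was present in 15.6% of those that fell and 17.8% of those that rose. Over the 110 bases from 60 before to 50 after the start, a window chosen after the first counts were seen, the numbers were 5 of 7, 10 of 20 and 1 of 9, beside 4.98% of all genes tested. An E2F site (TTTCGCGC or TTTGGCGC, both strands) was matched in 0 of 36 promoters and in 1.85% of those of all genes tested. The windows of Pttg1 (chr11:43425932-43426231) and Mad2l1 (chr6:66534971-66535270), which both rose, did not contain the start of the gene as counted. Those starts are at 43426248 and 66535468, so the bases around them were not searched in full. The windows of the genes that fell did contain the start. A match is only a run of letters and no evidence of binding, and no test was made of these shares.

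**Figure D2:**
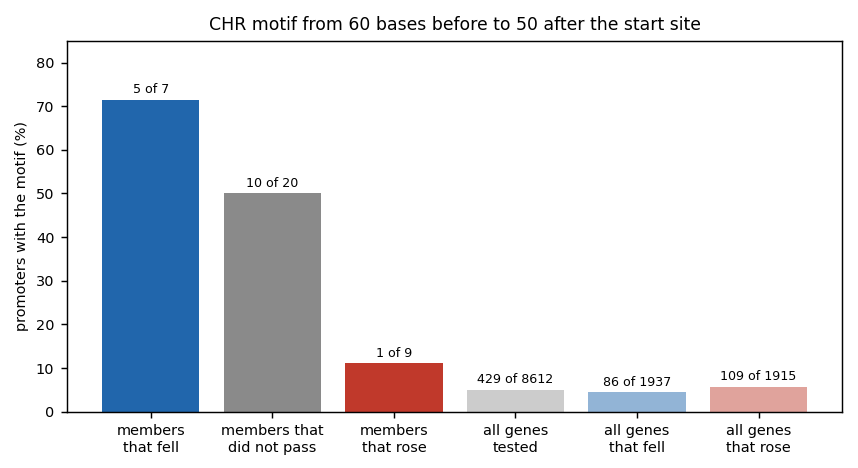
Share of promoters with a CHR match from 60 bases before to 50 after the start site, as bars from 0, with the counts written above each bar. The bars stand at 71.4% for genes described here that fell, 50% for those that did not pass and 11.1% for those that rose, and at 4.98%, 4.44% and 5.69% for all genes tested, all that fell and all that rose.

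Stretches around the start site are shown for genes that fell and held a match, and for Ttk, which rose and held one. The stretch around the start of Nuf2, which rose, held none. Pttg1 rose too, and the stretch shown for it held none. That stretch lies inside the gene as counted and does not contain its start, so the bases around the start of Pttg1 are not shown. All stretches run 5′ to 3′ along the gene, with the match in capitals (TTCAAA is TTTGAA on the other strand).
Spc25, fell, chr2:69206164-69206273, minus strand: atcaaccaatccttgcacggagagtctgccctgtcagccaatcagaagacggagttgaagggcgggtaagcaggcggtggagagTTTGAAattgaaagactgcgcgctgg
Ube2c, fell, chr2:164769869-164769978, plus strand: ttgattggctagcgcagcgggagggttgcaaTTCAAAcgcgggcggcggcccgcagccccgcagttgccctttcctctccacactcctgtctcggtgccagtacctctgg
Cdc20, fell, chr4:118437294-118437403, minus strand: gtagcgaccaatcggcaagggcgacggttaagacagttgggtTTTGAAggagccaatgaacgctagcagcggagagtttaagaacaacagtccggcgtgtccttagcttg
Kif11, fell, chr19:37376322-37376431, plus strand: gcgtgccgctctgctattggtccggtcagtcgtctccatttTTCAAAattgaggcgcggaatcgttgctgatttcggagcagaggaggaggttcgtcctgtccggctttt
Fbxo5, fell, chr10:5805416-5805525, minus strand: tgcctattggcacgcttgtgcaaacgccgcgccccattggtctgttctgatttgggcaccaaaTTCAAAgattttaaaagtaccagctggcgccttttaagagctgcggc
Ttk, rose, chr9:83834629-83834738, plus strand: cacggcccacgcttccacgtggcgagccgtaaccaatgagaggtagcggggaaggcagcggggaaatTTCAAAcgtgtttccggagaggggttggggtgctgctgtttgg
Nuf2, rose, chr1:169531415-169531524, minus strand: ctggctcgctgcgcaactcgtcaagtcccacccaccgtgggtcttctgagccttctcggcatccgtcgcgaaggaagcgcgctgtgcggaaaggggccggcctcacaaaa
Pttg1, rose, chr11:43425932-43426041, minus strand: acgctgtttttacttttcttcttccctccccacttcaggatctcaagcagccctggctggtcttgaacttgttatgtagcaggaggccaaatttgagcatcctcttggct

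The gene of securin rose most among the 41 genes with TMM scaling. Pttg1 (chr11:43420248-43426248 in mm10) encodes securin, the protein that holds separase inactive until the APC/C destroys it. Its lowest, median and highest levels were 399.7, 484 and 886 CPM (reads per 1000000 after TMM scaling) in f/wt and 1438, 8053 and 12289 CPM in Δm/wt. The lowest Δm/wt sample was thus above the highest f/wt sample. The fitted increase was 12.4-fold (log2 3.63 ± 0.40 SE, adjusted p = 1.41e-06), from 591 ± 204 (SD, n = 7) to 7296 ± 3244 CPM (SD, n = 8). Espl1, which encodes separase, did not pass, with 11.7 to 711 CPM in f/wt and 11.3 to 634 in Δm/wt (log2 -0.73 ± 0.71 SE, adjusted p = 0.413). Its 2 ranges covered each other almost wholly, and its levels varied between embryos of a group by 88.4% and 92.9% of their means (coefficient of variation), against 34.5% and 44.5% for Pttg1. The log2 ratio of Pttg1 to Espl1 counts within an embryo was -0.39 to 6.24 in f/wt and 3.73 to 8.93 in Δm/wt, and the groups overlapped.

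The 2 related F-box proteins that inhibit the APC/C moved in opposite directions. Fbxo43 (chr15:36150060-36164884) encodes EMI2, which holds the ovulated egg in metaphase of meiosis II until fertilization. It had 13.4, 42.9 and 73.4 CPM as the lowest, median and highest of the f/wt samples and 97.6, 262 and 524 CPM in Δm/wt, without overlap. This was a 6.75-fold increase (log2 2.75 ± 0.46 SE, adjusted p = 9.44e-05). Fbxo5 (chr10:5799158-5805465) encodes EMI1, the inhibitor used in the mitotic cell cycle, and its promoter held the match shown above. It had 82.6, 121 and 277 CPM in f/wt and 9.06, 14.4 and 115 CPM in Δm/wt. All Δm/wt samples but 1 were below every f/wt sample, and the exception, Δm/wt 4, stood inside the f/wt range. The mean in Δm/wt was 17.7% of that in f/wt (log2 -2.50 ± 0.56 SE, adjusted p = 0.00143), and without Δm/wt 4 the log2 fold change was -3.33. Within single embryos, where no scaling enters, the log2 ratio of Fbxo43 to Fbxo5 counts was -2.98 to -1.23 in f/wt and 1.20 to 5.39 in Δm/wt. Every f/wt embryo thus held more Fbxo5 than Fbxo43 reads, and every Δm/wt embryo the reverse.

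**Figure D3:**
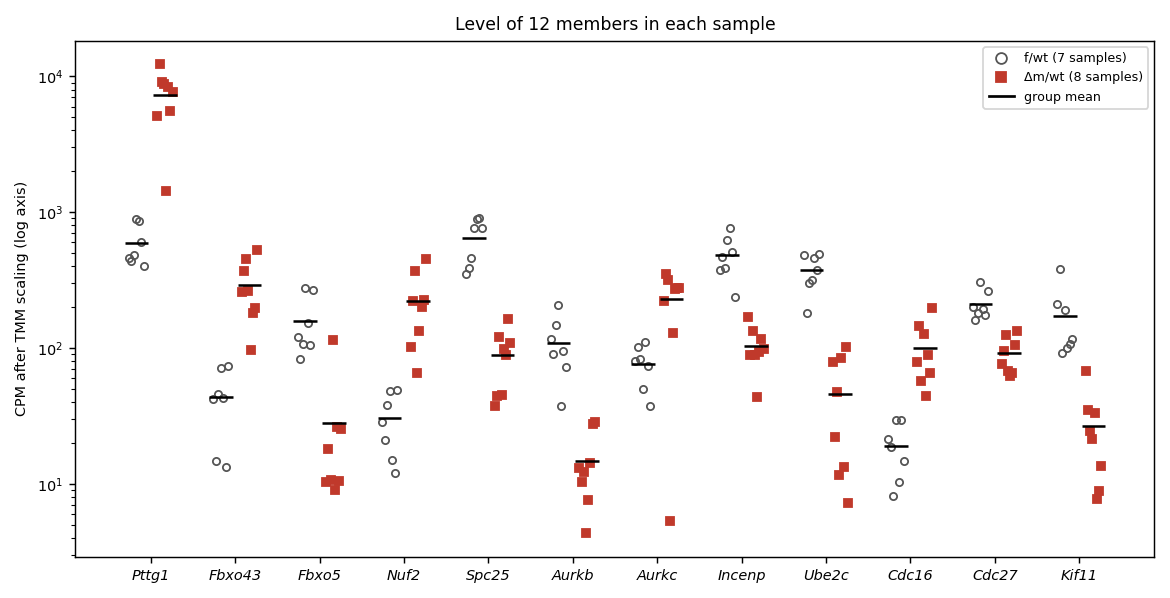
Levels of 12 of the genes in each sample, in CPM after TMM scaling on a log axis, with open circles for the 7 f/wt samples, filled squares for the 8 Δm/wt samples and a line at each group mean. Pttg1, Fbxo43, Nuf2 and Cdc16 are higher in every Δm/wt sample, Spc25, Aurkb, Incenp, Ube2c, Cdc27 and Kif11 are lower in every one, and single Δm/wt samples stand apart for Fbxo5 (115 CPM) and Aurkc (5.37 CPM).

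The E2 enzymes hand ubiquitin to the APC/C. Ube2c (chr2:164769929-164772902), which places the first ubiquitins on a substrate, had 181, 375 and 495 CPM as the lowest, median and highest of the f/wt samples and 7.32, 34.8 and 102 CPM in Δm/wt. No Δm/wt sample reached the lowest f/wt sample, and the fall to 12.2% of the f/wt mean (log2 -3.03 ± 0.53 SE, adjusted p = 0.00013) was the steepest among the 41 genes with TMM scaling. Ube2s, which lengthens the ubiquitin chain, did not pass, with 23.2 to 724 CPM in f/wt and 152 to 1524 in Δm/wt (log2 0.93 ± 0.60 SE, adjusted p = 0.21), but passed as a rise with the reference genes (log2 1.64, adjusted p = 0.0299). The log2 ratio of Ube2c to Ube2s counts within an embryo was -0.65 to 3.77 in f/wt and -6.83 to -1.35 in Δm/wt. The groups did not overlap in this ratio either.

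Of the APC/C coactivators, which bring substrates to the ligase, Cdc20 works in early mitosis and Fzr1, which encodes CDH1, from late mitosis on. Cdc20 had 81.3, 104 and 258 CPM as the lowest, median and highest of the f/wt samples and 18.2, 47.7 and 113 CPM in Δm/wt. It fell in Δm/wt to 33.7% of the f/wt mean (log2 -1.57 ± 0.44 SE, adjusted p = 0.00733), with 7 of 8 Δm/wt samples below every f/wt sample and Δm/wt 4 within their range. The call was lost with the reference genes (log2 -1.07, adjusted p = 0.11) and in embryos 4 to 8 alone (log2 -1.63, adjusted p = 0.0608). Reads of Cdc20 may include some of Elovl1, which overlaps it by 52 bases, since the strand setting of the counting was not stated. Fzr1 did not pass (0 to 50.9 CPM in f/wt, 3.55 to 37.7 in Δm/wt, log2 0.71 ± 0.80 SE, adjusted p = 0.484). Within an embryo the log2 ratio of Cdc20 to Fzr1 counts was 1.957 to 10.8 in f/wt and -1.03 to 4.03 in Δm/wt, with 6 of 8 Δm/wt embryos below every f/wt embryo.

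The subunits of the APC/C itself held both rises and falls, in shares near those of all genes tested. Of the 11 tested, 3 rose (27.3%, beside 21.9% of all genes tested), 2 fell (18.2%, beside 22.8%) and 6 did not pass. Anapc1 (chr2:128610083-128687395), the largest scaffold subunit, had 55.8, 89.4 and 122 CPM as the lowest, median and highest of the f/wt samples and 209.8, 246 and 354 CPM in Δm/wt. The 2.85-fold increase (log2 1.51 ± 0.30 SE, adjusted p = 0.000457) left a wide gap between the groups, and the coefficients of variation of 24.8% and 19.4% were low for these embryos, since the median gene among the 41 had 49.5% in f/wt and 59.9% in Δm/wt. Anapc10, which helps the complex to bind the degron of its substrates, had 60.4, 101 and 122 CPM in f/wt and 59.6, 264 and 675 CPM in Δm/wt. It rose 2.97-fold (log2 1.57 ± 0.43 SE, adjusted p = 0.0063), with 6 of 8 Δm/wt samples above every f/wt sample and 1 below them. The log2 ratio of Anapc10 to Anapc1 counts within an embryo was -0.57 to 0.86 in f/wt and -2.48 to 1.57 in Δm/wt, with overlapping groups.

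The tetratricopeptide-repeat subunits of the APC/C form its arm and bind the coactivators. Cdc16 (chr8:13757690-13781882), one of them, had 8.11, 18.6 and 29.7 CPM as the lowest, median and highest of the f/wt samples and 44.2, 84.1 and 199 CPM in Δm/wt, a 5.32-fold rise without overlap (log2 2.41 ± 0.47 SE, adjusted p = 0.000365). Cdc27 (chr11:104502526-104550620), its neighbour in the arm, had 160.1, 195 and 309 CPM in f/wt and 62.7, 85.9 and 134 CPM in Δm/wt. It fell in all Δm/wt samples to 43.2% of the f/wt mean (log2 -1.21 ± 0.31 SE, adjusted p = 0.00402), but with the reference genes the call was lost (log2 -0.51, adjusted p = 0.326). Anapc7, a further subunit of the arm, had 18.9, 39.9 and 76.5 CPM in f/wt and 0.108, 3.72 and 17.9 CPM in Δm/wt, again without overlap (log2 -2.90 ± 0.75 SE, adjusted p = 0.00395). The lowest of these values was from 1 count in a library, so that the size of the fall was poorly fixed. In the ratio of Cdc16 to Cdc27 counts within an embryo, a pair added after the values were seen, f/wt embryos had log2 values of -4.49 to -2.55 and Δm/wt embryos of -1.12 to 0.90.

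The APC/C subunits that did not pass were the catalytic pair, the cullin Anapc2 and the RING protein Anapc11, the platform subunits Anapc4 and Anapc5, and the small subunits Anapc13 and Cdc26. Anapc11 had 12.1 to 68.3 CPM in Δm/wt and 2.92 to 131 in f/wt (log2 -1.40 ± 0.62 SE, adjusted p = 0.0702), and passed as a fall in 8 of the alternatives, among them DESeq2 (adjusted p = 0.0343) and library totals (adjusted p = 0.0291). Anapc5 had 86.0 to 376 CPM in f/wt and 127 to 563 in Δm/wt (log2 0.53 ± 0.37 SE, adjusted p = 0.247), and passed as a rise with the reference genes (log2 1.30, adjusted p = 0.0339). Anapc4 had 0.372 to 16.8 and 0.881 to 91.0 CPM (log2 1.78 ± 0.85 SE, adjusted p = 0.0903), and passed as a rise with DESeq2 (adjusted p = 0.0419) and without Δm/wt 5 (adjusted p = 0.0484). For the others the log2 fold changes lay between -1.14 and 0.21. No value is given for Cdc23, the remaining subunit, beyond its counts, and it overlaps Kif20a by 1595 bases.

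Of the 6 spindle checkpoint genes, 2 rose (33.3%, beside 21.9% of all genes tested), 0 fell (beside 22.8%) and 4 did not pass. With only 6 genes, these counts alone say nothing particular about the checkpoint. Mad2l1 (chr6:66535468-66540991) encodes MAD2, which captures CDC20 and so blocks the APC/C. It had 197, 304 and 607 CPM as the lowest, median and highest of the f/wt samples and 283, 1151 and 2152 CPM in Δm/wt, with 6 of 8 Δm/wt samples above every f/wt sample (3.08-fold, log2 1.62 ± 0.41 SE, adjusted p = 0.00312). Ttk, the kinase MPS1 that starts checkpoint signalling at the kinetochore, had 26.6, 75.3 and 128 CPM in f/wt and 57.0, 236 and 815 CPM in Δm/wt. It rose 3.78-fold (log2 1.92 ± 0.49 SE, adjusted p = 0.00377), with 7 of 8 Δm/wt samples above every f/wt sample and Δm/wt 1 within their range. Of the 9 genes that rose and had a promoter, Ttk was the one with a CHR match in the bases searched.

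The 4 checkpoint genes that did not pass were Bub1 and Bub1b, kinase-related proteins of the kinetochore, Bub3, their partner, and Mad1l1, which carries MAD2 on unattached kinetochores. The log2 fold changes were -0.83 ± 0.47 (SE) for Bub1, 0.26 ± 0.61 for Bub1b, 0.07 ± 0.40 for Bub3 and -0.14 ± 0.52 for Mad1l1, with adjusted p-values of 0.15 to 0.904. Their 95% intervals reached from -1.75 to 0.08 for Bub1, from -0.93 to 1.44 for Bub1b, from -0.73 to 0.86 for Bub3 and from -1.15 to 0.88 for Mad1l1. With library totals Bub1 passed as a fall (log2 -1.14, adjusted p = 0.0372). The signs of Bub1b, Bub3 and Mad1l1 flipped when single libraries were left out. The log2 ratio of Bub1b to Bub1 counts within an embryo was -3.13 to 0.11 in f/wt and -6.32 to 1.28 in Δm/wt, so these groups overlapped too.

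Among the mitotic kinases, Aurora B and Aurora C went in opposite directions. Both can serve as the kinase of the chromosomal passenger complex, Aurkb in dividing cells in general and Aurkc in germ cells and early embryos. Aurkb (chr11:69045643-69051662) had 37.3, 95.5 and 208 CPM as the lowest, median and highest of the f/wt samples and 4.34, 12.7 and 28.8 CPM in Δm/wt. All Δm/wt samples were below all f/wt samples, at 13.5% of the f/wt mean (log2 -2.89 ± 0.49 SE, adjusted p = 0.000113). Aurkc (chr7:6995385-7003091) had 37.7, 81.0 and 112 CPM in f/wt and 5.37, 276 and 350.2 CPM in Δm/wt. Of the 8 Δm/wt samples, 7 were above every f/wt sample, and the lowest, Δm/wt 4, was below every one. The 3.01-fold increase (log2 1.59 ± 0.52 SE, adjusted p = 0.0179) was no longer past the threshold with library totals (log2 1.18, adjusted p = 0.0721), in embryos 4 to 8 alone (log2 1.43, adjusted p = 0.133) or without f/wt 8 (log2 1.30, adjusted p = 0.0589). In the ratio of Aurkc to Aurkb counts within an embryo, the log2 values were -2.04 to 1.58 in f/wt and 3.27 to 5.05 in 7 Δm/wt embryos, with Δm/wt 4 at 0.30.

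**Figure D4:**
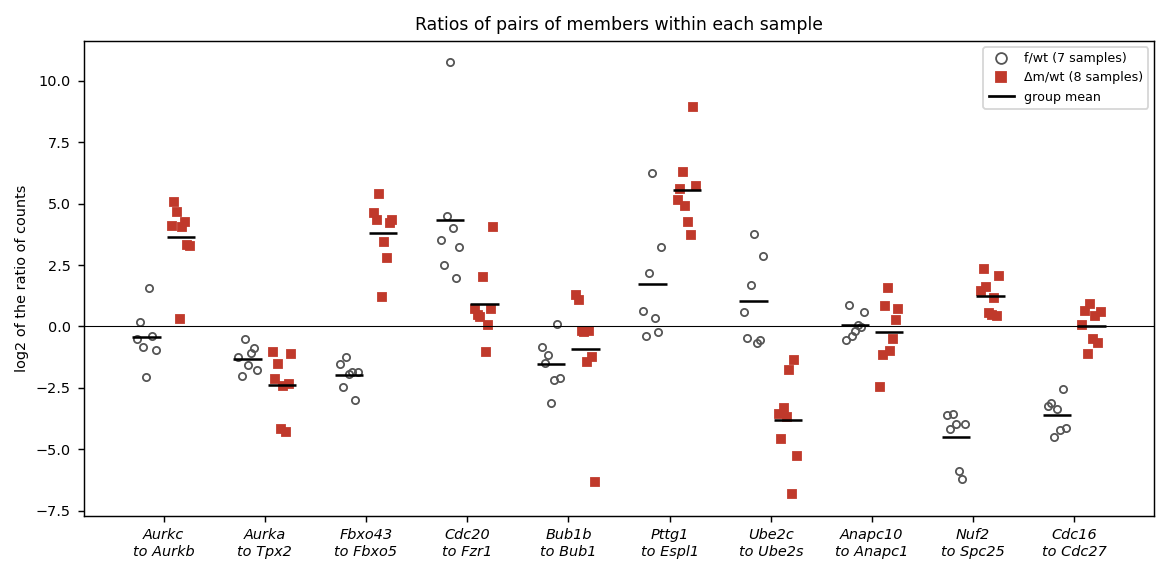
Log2 ratios of read counts for 10 pairs of genes within each sample (0.5 added to each count), with open circles for the 7 f/wt and filled squares for the 8 Δm/wt samples and lines at the group means. The groups do not overlap for Fbxo43 to Fbxo5, Ube2c to Ube2s, Nuf2 to Spc25 and Cdc16 to Cdc27, and for Aurkc to Aurkb they overlap only through Δm/wt 4.

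Aurka, the kinase of the spindle poles, and Plk1, a kinase with many mitotic tasks, did not pass. Aurka had 104 to 442 CPM in f/wt and 28.0 to 264 in Δm/wt (log2 -0.91 ± 0.48 SE, adjusted p = 0.126), and passed as a fall with library totals (log2 -1.32, adjusted p = 0.0325) and without Δm/wt 1 (log2 -1.19, adjusted p = 0.0489). Plk1 varied widely between embryos of a group, with 0.108 to 125 CPM in f/wt and 1.51 to 39.9 in Δm/wt (log2 -1.39 ± 1.02 SE, adjusted p = 0.272). Tpx2, the activator of Aurora A on the spindle, had a fold change near 0, with 308 to 812 CPM in f/wt and 224 to 655 in Δm/wt (log2 -0.13 ± 0.31 SE, 95% interval -0.74 to 0.47, adjusted p = 0.741). The log2 ratio of Aurka to Tpx2 counts within an embryo was -2.04 to -0.52 in f/wt and -4.32 to -1.03 in Δm/wt, with overlap.

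The non-kinase subunits of the chromosomal passenger complex also held both a rise and a fall. Incenp (chr19:9872297-9899533), the scaffold that binds and activates the Aurora kinase, had 239, 466.4 and 763 CPM as the lowest, median and highest of the f/wt samples and 44.0, 96.1 and 169 CPM in Δm/wt. It fell in every Δm/wt sample, to 21.7% of the f/wt mean (log2 -2.21 ± 0.34 SE, adjusted p = 4.03e-05). Birc5, which encodes survivin and anchors the complex to chromatin, had 226, 312 and 468 CPM in f/wt and 223, 747 and 915 CPM in Δm/wt. It rose 2.03-fold (log2 1.02 ± 0.33 SE, adjusted p = 0.0167), with 5 of 8 Δm/wt samples above every f/wt sample, and the call was lost with library totals (log2 0.69, adjusted p = 0.096), in embryos 4 to 8 alone (log2 0.59, adjusted p = 0.287) and without f/wt 8 (log2 0.81, adjusted p = 0.0616). Cdca8, which encodes borealin, had 7.35 to 410.0 CPM in f/wt and 32.2 to 626 in Δm/wt and did not pass (log2 0.27 ± 0.60 SE, adjusted p = 0.728).

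The NDC80 complex is a rod of 4 proteins, in which NDC80 and NUF2 hold the microtubule and SPC24 and SPC25 hold the inner kinetochore. Nuf2 (chr1:169497934-169531464) had 12.1, 28.5 and 48.8 CPM as the lowest, median and highest of the f/wt samples and 65.5, 211 and 452 CPM in Δm/wt. Spc25 (chr2:69193895-69206190) had 351, 762 and 913 CPM in f/wt and 37.6, 93.7 and 165 CPM in Δm/wt. Neither gene had overlapping groups, but one rose 7.29-fold (Nuf2, log2 2.87 ± 0.48 SE, adjusted p = 8.78e-05) and the other fell to 13.7% of the f/wt mean (Spc25, log2 -2.87 ± 0.38 SE, adjusted p = 1.06e-05). Ndc80, the partner of Nuf2, had 46.1 to 176 CPM in f/wt and 70.5 to 320.0 in Δm/wt (log2 0.78 ± 0.42 SE, adjusted p = 0.131), and Spc24, the partner of Spc25, had 2.08 to 23.9 and 3.15 to 26.3 CPM (log2 0.12 ± 0.72 SE, adjusted p = 0.904). Neither passed, although with the reference genes Ndc80 did so as a rise (log2 1.52, adjusted p = 0.0137). In the ratio of Nuf2 to Spc25 counts within an embryo, also added after the values were seen, the log2 values were -6.23 to -3.58 in f/wt and 0.45 to 2.33 in Δm/wt, negative in every f/wt embryo and positive in every Δm/wt embryo.

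The centromere and outer kinetochore proteins of the list did not pass. Cenpa, the histone H3 variant that marks the centromere, had 244 to 545 CPM in f/wt and 151 to 413 in Δm/wt (log2 -0.56 ± 0.31 SE, adjusted p = 0.143). Cenpe, a kinesin of the kinetochore, had 42.4 to 247 and 164 to 468 CPM, with all 8 Δm/wt samples above the f/wt mean (log2 0.83 ± 0.39 SE, unadjusted p = 0.044, adjusted p = 0.0854). Cenpf, a large protein of the outer kinetochore, had 314 to 666 and 80.4 to 724 CPM (log2 -0.69 ± 0.40 SE, adjusted p = 0.166). For Cenpf 6 of 8 Δm/wt samples were below every f/wt sample while Δm/wt 8 was above every one, and without Δm/wt 8 it passed as a fall (log2 -1.10, adjusted p = 0.0169). At an unadjusted p under 0.05, 1 of the 3 genes passed, and with DESeq2 none did. With library totals Cenpa (log2 -0.89, adjusted p = 0.03) and Cenpf (log2 -1.11, adjusted p = 0.017) passed as falls, with the reference genes Cenpe passed as a rise (log2 1.42, adjusted p = 0.0131), and without f/wt 8 Cenpa passed as a fall (log2 -0.80, adjusted p = 0.0434). Kif11 (chr19:37376403-37421859), the kinesin that slides spindle microtubules apart to make the spindle bipolar, fell in every Δm/wt sample, from 91.9, 117 and 381 CPM as the lowest, median and highest of f/wt to 7.79, 23.1 and 68.1 CPM (log2 -2.69 ± 0.50 SE, adjusted p = 0.000258).

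**Figure D5:**
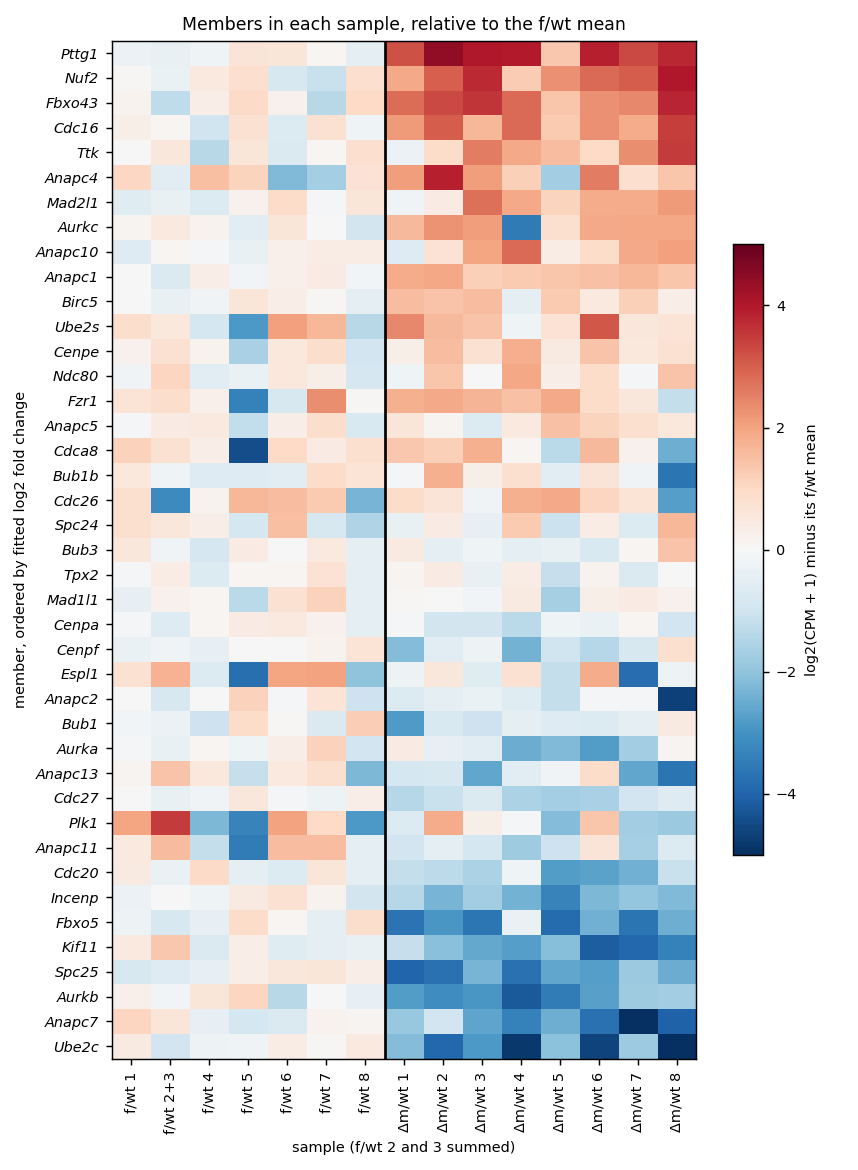
The 41 tested genes in the 15 samples, as log2(CPM + 1) minus the mean of that value over the 7 f/wt samples, in red where higher and blue where lower, with genes ordered by fitted fold change and a line between the groups. Pttg1, Nuf2, Fbxo43 and Cdc16 are red in all 8 Δm/wt samples and Incenp, Spc25, Aurkb and Ube2c are blue in all 8, while Δm/wt 4 stands apart for Aurkc and Fbxo5.

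A second list held 54 other kinetochore and spindle genes, of which 51 were tested. Of these 5 rose (9.80%, beside 21.9% of all genes tested) and 22 fell (43.1%, beside 22.8%), and the median log2 fold change was -0.87. With the reference genes 8 rose and 11 fell, and the list's median minus that of all genes was -0.77, against -0.91 with TMM. The largest rise was in Cenpo, an inner kinetochore subunit, from 14.4 ± 7.46 (SD, n = 7) to 134 ± 49.2 CPM (SD, n = 8) without overlap (log2 3.22 ± 0.44 SE, adjusted p = 1.32e-05). Cenpn, whose protein reads the CENP-A nucleosome, rose too (log2 1.65 ± 0.45 SE, adjusted p = 0.00586), as did Cenph (log2 1.499 ± 0.47 SE, adjusted p = 0.014), an inner kinetochore subunit, and Zw10 (log2 2.29 ± 0.83 SE, adjusted p = 0.0289), a checkpoint protein that brings dynein to kinetochores. In embryos 4 to 8 alone the last 2 no longer passed (adjusted p = 0.133 and 0.225), and Zw10 was lost with library totals (log2 1.89, adjusted p = 0.0714) and in 4 of the fits that left out libraries. The deepest falls were in Cenpt, which links the inner kinetochore to the NDC80 complex, from 73.4 ± 34.0 to 1.66 ± 1.68 CPM (log2 -5.44 ± 0.73 SE, adjusted p = 1.1e-05), in Cenpm, an inner kinetochore subunit (log2 -5.20 ± 1.12 SE, adjusted p = 0.000939), in Oip5, needed to load CENP-A (log2 -4.65 ± 0.84 SE, adjusted p = 0.000185), and in Ska2, of the complex that tracks microtubule ends (log2 -3.99 ± 0.86 SE, adjusted p = 0.000967). The fold change of Oip5 was -5.32 without Δm/wt 3 and that of Ska2 -5.37 without Δm/wt 1. Cenpm had 0 to 43.5 CPM in f/wt and 0 to 1.39 in Δm/wt. Its groups thus overlapped, and the size of its fall was poorly fixed.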

How the data were processed

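Gene counts per embryo were used as deposited. The authors made cDNA with an oligo-dT single-cell method reaching about 3 kb from the 3′ end, discarded low-quality and A/T-rich reads, aligned the rest to mm10 with TopHat2 (2.0.6), kept unique best alignments, so that reads shared with gene copies were lost, and summed reads per RefSeq gene in HTSeq (0.6.1). The deposited counts are raw whole reads without molecular identifiers, and no strand setting was stated. Repeat counts were not used here. Of 18907 genes with a count, the 60% with the highest sums (11344) were fitted by edgeR's quasi-likelihood method (edgeR 4.0.16, R 4.3.3, checked on simulated data) after TMM scaling, with Benjamini-Hochberg adjustment and a threshold of 0.05. SE is the log2 fold change over the square root of F. Alternatives were library totals, reference genes, DESeq2 (1.42.0), no filter, f/wt 2 and 3 apart, embryos 4 to 8, a term for 3 sets of embryos, a replicate block and leaving out each library. Members and lists were chosen with earlier results of these data known. Named were all genes past the threshold with at least 10 CPM on average, the 8 with the highest means that did not pass, and at most 4 per direction of the second list. Further genes were named after their values were seen.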

Additional observations from a re-analysis of the deposited data

Results flagged for a closer look

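Dixon's test at the 95% level was applied to the level of each gene and to the 8 planned ratios in each group, 98 groups in all. The 2 ratios added after the values were seen were not included. Single samples stood apart in 17 groups. Chance gives about 1 in 20 only for independent values with a normal spread. Levels of genes were used without logs, and the genes share libraries, so the 17 cannot be read against that rate. Δm/wt 8 was far above the rest of its group for Bub1 (108 CPM, the others 10.4 to 55.9), Bub3 (212, the others 46.0 to 109) and Cenpf (724, the others 80.4 to 346), and low for the log2 ratio of Bub1b to Bub1 (-6.32, the others -1.45 to 1.28). Δm/wt 4 was above its group for Fbxo5 (115 CPM, the others 9.06 to 26.2) and Cdc20 (113, the others 18.2 to 59.8), and below it for the log2 ratio of Aurkc to Aurkb (0.30, the others 3.27 to 5.05). Δm/wt 6 was high for Espl1 (634 CPM, the others 11.3 to 295), Anapc11 (68.3, the others 12.1 to 32.0) and Anapc13 (27.7, the others 0.209 to 12.2). Single values stood out for Kif11 in Δm/wt 1 (68.1 CPM, the others 7.79 to 35.0), Anapc4 in Δm/wt 2 (91.0, the others 0.881 to 35.6) and Mad1l1 in Δm/wt 5 (6.67, the others 21.0 to 31.9). In the controls, the summed sample f/wt 2 and 3 was high for Kif11 (381 CPM, the others 91.9 to 213) and Plk1 (125, the others 0.108 to 43.7), f/wt 7 for Fzr1 (50.9, the others 0 to 18.5) and f/wt 5 for the log2 ratio of Cdc20 to Fzr1 (10.8, the others 1.957 to 4.49), where Fzr1 was at 0 counts.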

How the results depend on the processing

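The counts of 10 rises and 9 falls stayed within 1.5 times under the alternatives, with 8 to 11 rises and 9 to 11 falls when libraries were left out, except that library totals gave 14 falls. For the second list, the reference genes gave 8 rises and 11 falls and embryos 4 to 8 gave 3 rises, and leaving out libraries gave 4 to 6 rises and 19 to 24 falls. Replicate numbers did not pair the samples (1 of 8 correlations of deviations over 0.1, range -0.0728 to 0.137). The replicate block gave 10 rises and 10 falls, in which Aurkc was lost (log2 1.38, adjusted p = 0.0607) and Ube2s (log2 1.26, adjusted p = 0.026) and Cenpf (log2 -0.94, adjusted p = 0.033) were gained. No gene that passed changed sign in the alternatives run. Among genes that did not pass, log2 fold changes turned with library totals for Bub1b (-0.055), Bub3 (-0.36), Cdc26 (-0.064), Cdca8 (-0.11) and Spc24 (-0.34), with the reference genes for Bub1 (0.037), Mad1l1 (0.47), Cenpa (0.15), Cenpf (0.20) and Tpx2 (0.55), in embryos 4 to 8 for Bub1b (-0.15) and Cdca8 (-0.10), without the filter for Bub3 (-0.098) and Spc24 (-0.076), and with the replicate block for Bub3 (-0.037) and Spc24 (-0.020). Leaving out libraries gave ranges that crossed 0 for Bub1b (-0.13 to 0.44), Bub3 (-0.27 to 0.17), Mad1l1 (-0.41 to 0.12), Cdc26 (-0.16 to 0.45, and -0.025 without f/wt 2 and 3), Spc24 (-0.26 to 0.50), Tpx2 (-0.37 to 9.8e-05) and the difference in the log2 ratio of Anapc10 to Anapc1 (-0.26 with all samples, -0.52 to 0.059). The reference genes raise the median of all genes from 0.04 to 0.75 and library totals lower it to -0.32, so turns under these 2 go with a shift of all genes. For the other turns the cause was not tested. Low counts limit Anapc7, Fzr1, Plk1, Cdc26 and Spc24, and Cenpm in the second list.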

Other observations

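The 3′ ends of the messages were searched for the cytoplasmic polyadenylation element, a signal by which stored egg messages are given longer tails and translated, after the values of the genes were known. In the last 100 bases of the longest GENCODE coding transcript, among transcripts with a polyadenylation signal (AATAAA or ATTAAA) in their last 40 bases, TTTTAT or TTTTAAT was present in 8 of 34 genes described here (23.5%), against 20.4% of all genes tested. It was present in 5 of the 8 that fell, in 1 of the 8 that rose and in 2 of the 18 that did not pass, while among all genes tested it was present in 18.1% of those that fell and 21.1% of those that rose. The annotated end may not be the end used in the embryo, and no test was made of these shares.

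Of the 41 genes, Δm/wt 5 held the lowest value within the Δm/wt samples for 12, and Δm/wt 8 the highest within them for 10. Within the f/wt samples, f/wt 7 held the highest value for 10.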
